A study of Homo sapiens with 6 samples.

Results

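The clustered protocadherins are 53 protein-coding genes on 5q31 that lie in 3 tandem groups, the alpha, beta and gamma clusters. Of these, 9 genes stood for the locus: *PCDHA1*, *PCDHAC1* and *PCDHAC2* of alpha, *PCDHB2* and *PCDHB15* of beta, and *PCDHGA1*, *PCDHGB1*, *PCDHGC3* and *PCDHGC5* of gamma. They were followed in Hi-C maps of 40-kb bins on chromosome 5 (hg19), in a window of 3 Mb or 75 bins. Bins that overlap a clustered gene numbered 18 of the 75918 bins of chromosomes 1 to 22 and X, 6 for each cluster, and all 18 passed a coverage filter that 64931 bins passed. The maps came from 4 cancer cell lines grown without any treatment named in the labels. SW480 and SNU-C1 are colon cancer lines, HCC1954 is a breast cancer line and OE33 is an esophageal adenocarcinoma line. For SNU-C1, HCC1954 and OE33 1 map each was used here. SW480 has 2 replicate maps and a map with no replicate number, whose read pairs equalled the sum of the replicates at 99.9812% of the bin pairs of chromosome 5, so this map stood for SW480 and the replicates gave the spread.

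Protocadherins are adhesion proteins of the cadherin superfamily at the cell surface. The clustered ones are best known from neurons, where each cell uses its own combination of isoforms and recognises itself by it. Each alpha or gamma isoform starts at its own promoter and variable exon, which is spliced to constant exons shared by the whole cluster, while the beta genes are single units without constant exons. The C-type genes, among them *PCDHAC1*, *PCDHAC2*, *PCDHGC3* and *PCDHGC5*, sit at the constant end of their clusters and are less like their neighbours. In neurons, CTCF and cohesin join promoters to distal enhancers by loops. In colon and breast cancers the promoters of the locus are known as targets of DNA methylation. No expression, methylation or CTCF binding was measured in these maps.

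In hg19 the alpha cluster runs from chr5:140165721-140391932 (226.212 kb, 15 genes), the beta cluster from chr5:140430959-140628933 (197.975 kb, 16 genes) and the gamma cluster from chr5:140710081-140892544 (182.464 kb, 22 genes). The genes named here lie on the plus strand. The last alpha exon (chr5:140389212-140391932) is annotated with these exact coordinates in 13 of 15 alpha genes. The last gamma exon (chr5:140890514-140892542) is so annotated in 22 of 22 gamma genes. A gene whose annotated exon has another end is not counted. The alpha exons at chr5:140358534-140358592 and chr5:140362060-140362148 are shared by 15 of 15 alpha genes. *PCDHA1* (ENSG00000204970) starts at base 140165721, *PCDHAC1* (ENSG00000248383) at 140305884 and *PCDHAC2* (ENSG00000243232) at 140346055. *PCDHB2* (ENSG00000112852) starts at 140474191 and *PCDHB15* (ENSG00000113248) at 140624963. *PCDHGA1* (ENSG00000204956) starts at 140710081, *PCDHGB1* (ENSG00000254221) at 140729666, *PCDHGC3* (ENSG00000240184) at 140855514 and *PCDHGC5* (ENSG00000240764) at 140868648. The last 2 share 1 bin, so the 9 genes fill 8 bins.

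The promoters of the cluster genes carry a common set of letters. A RefSeq table of promoters (GRCh38.p14), each 250 bases before to 50 after a start, held 47 of the 53 genes and 8 of the 9 named ones, the missing one being *PCDHGC5*. The letters CGCT stood on the gene's strand in 46 of these promoters: 12 of 13 in alpha, 14 of 14 in beta and 20 of 20 in gamma, against 54.1% of all 27305 promoters on that strand and 69.4% on either strand. The 6 letters found in most promoters of each cluster all contained CGCT. They were GTCGCT in alpha (11 of 13, against 4.43% of all promoters on that strand and 8.15% on either strand), GGCGCT in beta (13 of 14, against 12.4% and 21.6%) and CGCTGT in gamma (17 of 20, against 5.96% and 11.3%). These words were picked because they were frequent, they overlap each other, and a match is a match of letters only. The promoters below belong to the pairs of named genes with the highest and the lowest mean contact among named genes (described later). Each sequence matched hg19 exactly once on chromosome 5. The 250 bases before the RefSeq start are printed 5′ to 3′, with the 6 letters of the gene's cluster in capitals where they occur. *PCDHA1* is at chr5:140165475-140165724, *PCDHAC2* at chr5:140345811-140346060, *PCDHB15* at chr5:140624713-140624962 and *PCDHGA1* at chr5:140709831-140710080.
PCDHA1: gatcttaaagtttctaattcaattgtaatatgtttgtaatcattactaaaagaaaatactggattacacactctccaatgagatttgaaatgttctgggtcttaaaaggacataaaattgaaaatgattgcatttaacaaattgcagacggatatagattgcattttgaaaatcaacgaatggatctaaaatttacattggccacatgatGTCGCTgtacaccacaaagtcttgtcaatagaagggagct
PCDHAC2: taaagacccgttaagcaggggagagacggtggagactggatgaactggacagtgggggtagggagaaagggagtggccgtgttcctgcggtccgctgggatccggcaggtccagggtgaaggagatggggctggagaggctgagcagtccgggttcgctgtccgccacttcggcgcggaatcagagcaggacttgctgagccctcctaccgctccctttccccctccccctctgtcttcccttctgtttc
PCDHB15: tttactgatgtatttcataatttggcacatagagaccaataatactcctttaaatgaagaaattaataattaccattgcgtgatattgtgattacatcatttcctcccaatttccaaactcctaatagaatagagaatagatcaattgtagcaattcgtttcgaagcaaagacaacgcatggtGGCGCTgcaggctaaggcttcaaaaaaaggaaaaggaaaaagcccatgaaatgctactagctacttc
PCDHGA1: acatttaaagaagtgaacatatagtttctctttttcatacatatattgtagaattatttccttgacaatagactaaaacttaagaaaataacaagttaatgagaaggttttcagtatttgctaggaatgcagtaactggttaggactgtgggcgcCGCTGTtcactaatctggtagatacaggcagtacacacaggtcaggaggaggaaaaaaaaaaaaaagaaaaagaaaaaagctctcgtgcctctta
The capitals begin 40 bases before the start of *PCDHA1*, 67 before *PCDHB15* and 95 before *PCDHGA1*. *PCDHAC2* held CGCT 3 times and its promoter had no GTCGCT.

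Hi-C joins DNA ends that lie close together in the nucleus and counts the joined fragments as read pairs. The deposited values are contact frequencies of bin pairs after iterative correction, which evens out the total of each bin. Here each value was divided by the average value of usable bin pairs equally far apart in that map (observed over expected, O/E), so that 1 is the genome average. Whole read pairs were recovered from the values. Within chromosomes they numbered 133303762 (SW480), 114980653 (SNU-C1), 93213819 (HCC1954) and 89083054 (OE33). The 153 pairs of cluster bins held 14404, 14905, 9165 and 10733 of them in that order, with medians of 65, 71, 40 and 49 read pairs a bin pair. Intervals are exact 95% Poisson intervals of the summed read pairs, scaled to the O/E, and cover counting error only. A block mean weighs sparse and dense bin pairs alike, so intervals of blocks and flanks can be too narrow. With 1 map in 3 of the lines, the spread between samples could come from the 2 SW480 replicates alone, so no test between lines was run and no p-value is given.

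The 3 clusters contacted each other more than distance alone would give, and more than they contacted the 400 kb on either side on average, in every line. The contact-rich stretch ran 1 bin past the clusters on each side. Between clusters, over 108 bin pairs, O/E was 1.38 in SW480 (interval 1.35 to 1.42), 1.40 in SNU-C1 (1.37 to 1.43), 1.38 in HCC1954 (1.34 to 1.42) and 1.38 in OE33 (1.35 to 1.42). The SD of the SW480 replicates was 0.0066 (n = 2). With the 400 kb before and the 400 kb after, O/E was 0.690 in SW480 (0.675 to 0.704), 0.609 in SNU-C1 (0.595 to 0.624), 0.565 in HCC1954 (0.549 to 0.582) and 0.531 in OE33 (0.518 to 0.546), with a replicate SD of 0.0065. No interval of the first set overlapped one of the second. The average hides the nearest bin of each side. The bin before alpha, at 140.12 Mb, contacted the 18 cluster bins at 1.65 in SW480 (1.55 to 1.75), 1.48 in SNU-C1 (1.39 to 1.58), 1.21 in HCC1954 (1.11 to 1.33) and 1.62 in OE33 (1.52 to 1.72). The bin after gamma, at 140.92 Mb, had 1.77 (1.70 to 1.85), 1.74 (1.67 to 1.82), 1.76 (1.67 to 1.86) and 1.26 (1.19 to 1.34). These values were below those between clusters in HCC1954 before alpha and in OE33 after gamma, and above them otherwise, although the intervals overlapped in SNU-C1 before alpha. The other 18 flank bins were below 1 in each line, from 0.174 to 0.958. The highest of these values, in SW480 at 140.08 Mb, had an interval of 0.889 to 1.03. SW480 replicate 1 had 1.05 there, so SW480 is not resolved from 1 in this bin. Without the authors' correction the value between clusters fell below 1 in HCC1954 (0.949) and stayed above it in SW480 (1.13), SNU-C1 (1.28) and OE33 (1.39).

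Windows with the same layout of bins were laid over the genome to set a scale, 49876 in all, and they overlap. Their median O/E between blocks was 0.976 to 0.982 in the 4 lines. Contacts between blocks were as high as at the protocadherins in 7.82% (SW480), 4.95% (SNU-C1), 6.84% (HCC1954) and 8.93% (OE33) of windows. Contacts with the flanks were as low in 5.72%, 2.03%, 1.24% and 2.97% of windows in the same order. Both at once held for 47, 17, 11 and 12 windows, that of the locus included, and in all 4 lines together for 1 window, the locus itself. The thresholds were the locus's own values, so it passes by construction. How many other windows would stand alone under their own values was not counted. The windows were not chosen to match gene content or depth, so these shares describe the map and are no test.

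As block means over all bins, contacts of alpha with beta exceeded those within any cluster. Alpha with beta was the highest of the 6 blocks in every line, at 1.56 (SW480), 1.56 (SNU-C1), 1.59 (HCC1954) and 1.51 (OE33). Beta with gamma followed at 1.34, 1.39, 1.47 and 1.38. Its intervals overlapped that of gamma with itself in SW480 and HCC1954, and that of alpha with gamma in SW480 and OE33. In SW480 the interval of beta with gamma also overlapped that of alpha with itself. Alpha with gamma, the farthest pair, had 1.26, 1.245, 1.09 and 1.26. Inside the clusters, gamma (1.24 to 1.38) and alpha (1.09 to 1.32) stood above beta. Beta with itself had 1.06 (SW480), 1.01 (SNU-C1), 1.13 (HCC1954) and 0.940 (OE33), where its interval (0.889 to 0.992) lay under 1. The bin at 140.40 Mb had 0.587 to 0.824 with the other beta bins in OE33. In SW480 it had 0.689 to 0.863 with them, in SNU-C1 0.720 to 0.902 and in HCC1954 0.645 to 1.09. The low values of beta with itself thus lean on this bin too, in each line. The beta bins thus had fewer contacts among themselves, for their distance, than with either neighbour. The first rank of alpha with beta leans on the bin at 140.40 Mb as well. With the alpha bin at 140.2 Mb it had 3.51 (SW480), 3.31 (SNU-C1), 4.998 (HCC1954) and 3.08 (OE33). With the last alpha bin it had only 1.01 to 1.06. With the gamma bins it had 0.491 to 1.03, 0.694 to 1.22, 0.527 to 1.21 and 0.864 to 1.21 in the same order. The rank of the blocks without this bin was not tested.

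**Figure D1:**
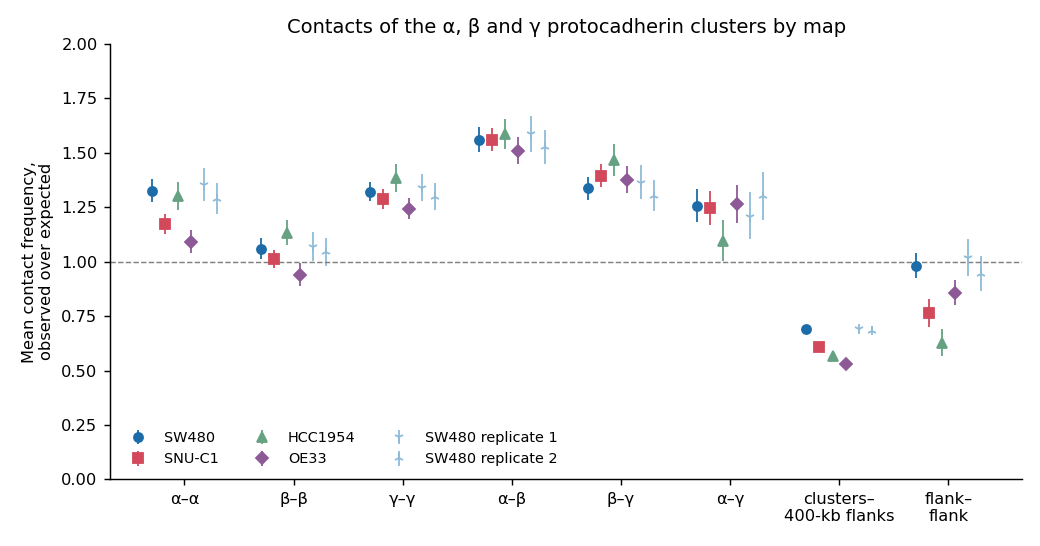
Mean O/E (vertical axis, no unit) of bin pairs within and between the alpha, beta and gamma clusters, of the clusters with the 400-kb flanks and of the flanks with each other, for the 6 maps. Points are block means, bars are 95% Poisson intervals of the summed read pairs scaled to the mean, and the dashed line marks the genome average of 1. Alpha with beta lies between 1.51 and 1.59 in the 4 lines, and the clusters with their flanks between 0.531 and 0.690.

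Within the blocks the contacts were uneven, and alpha held both extremes. Averaged over the lines, the bin of *PCDHA1*, the first alpha gene, had an O/E of 2.02 with the other 2 clusters, and the next 2 bins had 1.98 and 1.63. The values then dropped to 1.13 in the bin of *PCDHAC1*, 0.854 in that of *PCDHAC2* and 0.692 in the last alpha bin, which holds constant exons and no gene start. These 2 last bins were the only ones of 18 under 1, in each of the 4 lines and in both SW480 replicates. The *PCDHA1* bin was the highest of 18 in SW480 (2.06), SNU-C1 (2.09) and OE33 (2.18). In HCC1954 it had 1.76, and the bin after it was the highest with 2.13. The lowest bin was the last alpha bin in every map, at 0.765 (SW480), 0.756 (SNU-C1), 0.626 (HCC1954) and 0.620 (OE33).

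The alpha bins were split in the middle after these values were seen, so the values of the 2 sets restate the drop and lend it no support. The first 3 bins, with 13 gene starts, contacted beta at 2.14 in SW480 (2.03 to 2.25), 2.14 in SNU-C1 (2.04 to 2.24), 2.28 in HCC1954 (2.14 to 2.42) and 2.13 in OE33 (2.01 to 2.26). The last 3 bins, with 2 gene starts and nearer to beta, had 0.977 (0.928 to 1.03), 0.984 (0.937 to 1.03), 0.897 (0.842 to 0.954) and 0.888 (0.838 to 0.940). With gamma the first 3 bins had 1.61, 1.66, 1.41 and 1.64, and the last 3 had 0.900, 0.835, 0.779 and 0.885. Without the authors' correction the first 3 bins stayed above the last 3 in each line. With beta the values were then 1.51 against 0.807, 1.88 against 0.947, 1.42 against 0.678 and 1.67 against 0.919, and with gamma 1.31 against 0.857, 1.45 against 0.813, 0.909 against 0.612 and 1.61 against 1.17. In the genome-wide windows the highest of the first 6 bins was at least as far above the lowest as in alpha (2.92 times, lines averaged) in 4.07%, against a median of 1.51 times. Alpha was picked after its values were seen, and only the first 6 bins of each window were compared. This share therefore lends no support either. High contact was not confined to bins with clustered genes. The bin before alpha, at 140.12 Mb, holds no protein-coding gene and was above 1 with each beta bin. Its lowest values there were 1.55 (SW480), 1.34 (SNU-C1), 1.09 (HCC1954) and 1.55 (OE33). The bin between beta and gamma had 2.97, 3.06, 2.56 and 1.90 with that of *PCDHA1*. A part of gene starts in the drop was not tested.

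**Figure D2:**
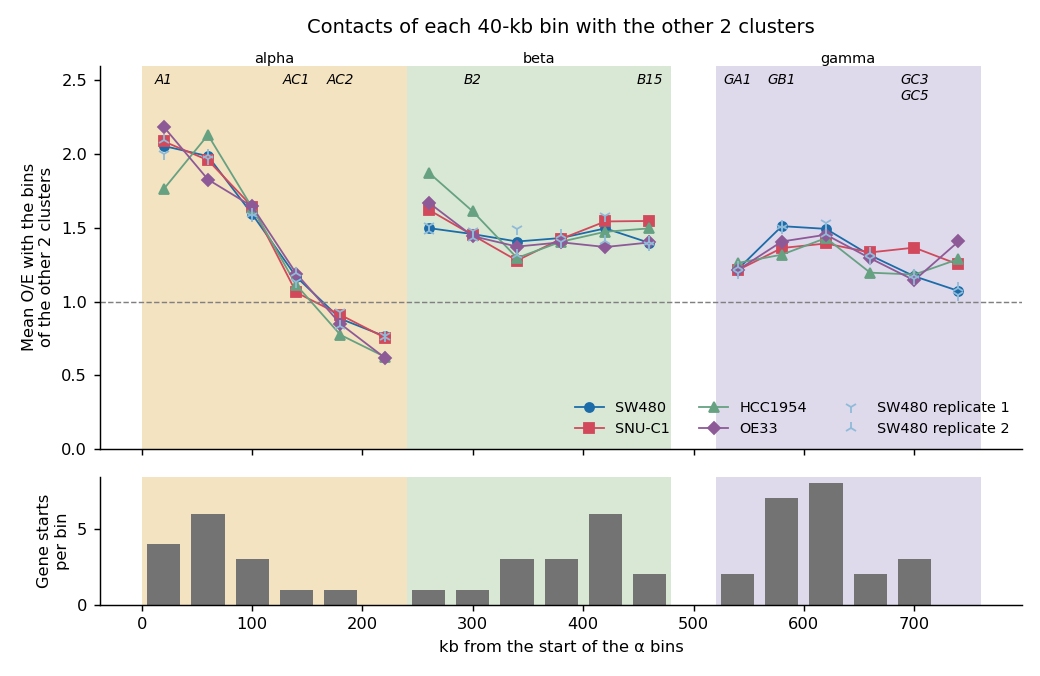
Upper panel: mean O/E of each of the 18 cluster bins with the bins of the other 2 clusters, by distance in kb from the start of the alpha bins, with lines for the 4 cell lines, tick marks for the SW480 replicates and the named genes above their bins. Lower panel: number of protein-coding gene starts in each bin. The alpha bins fall from about 2 to under 1, while the beta and gamma bins of the 4 lines stay between 1.07 and 1.87.

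Beta and gamma had no such slope. The bins of *PCDHB2* and *PCDHB15* had 1.49 and 1.46 with the other clusters, lines averaged, and the 6 beta bins ran from 1.34 to 1.67. The bin of *PCDHGA1* had 1.23, that of *PCDHGB1* 1.40 and that of *PCDHGC3* and *PCDHGC5* 1.22, within a gamma range of 1.22 to 1.44. Across the 18 bins, O/E with the other clusters and the number of gene starts had a Pearson r of 0.61 (SW480), 0.47 (SNU-C1), 0.41 (HCC1954) and 0.41 (OE33). With the number of CpG letters r was 0.70, 0.61, 0.53 and 0.53, and with GC content it was -0.07, -0.01, -0.10 and -0.05. With the number of GATC sites it was -0.27, -0.20, -0.23 and -0.29. Bins share contacts and neighbours, so these values are a description of 18 linked points. The cluster bins had a median of 104.5 GATC sites, which MboI cuts, against 98 in all usable bins, and a median of 701 CpG against 316.

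Among the 28 distinct pairs of bins that hold named genes, 13 had an O/E above 1 in all 4 lines and 3 had one below 1 in all 4. Of all usable bin pairs up to 18 bins apart, 19.3% were above and 34.1% below 1 in all 4 lines. The pairs of named genes share bins, so the 28 are not independent. Each value belongs to a pair of 40-kb bins and not to the named genes alone. The bin of *PCDHA1* holds 4 gene starts, that of *PCDHGB1* 7 and those of *PCDHB15* and *PCDHGA1* 2 each. The pair with the highest mean over the lines was *PCDHA1* with *PCDHB15*, 440 kb apart. It had 2.16 (SW480), 2.61 (SNU-C1), 1.55 (HCC1954) and 2.68 (OE33), from 55, 72, 23 and 49 read pairs. The interval in HCC1954 ran from 0.981 to 2.32 and overlapped those of the other lines. The pair with the lowest mean was *PCDHAC2* with *PCDHGA1*, 360 kb apart, at 0.747, 0.692, 0.635 and 0.673 from 30, 27, 15 and 22 read pairs. Each of these 4 intervals reached 1, so the low value of this 1 pair is not resolved at this depth. *PCDHA1* also stood at 2.15 with *PCDHB2*, 2.09 with *PCDHGA1* and 2.18 with *PCDHGB1*, lines averaged, and at 1.49 with *PCDHGC3* and *PCDHGC5*. The pair of *PCDHB15* and *PCDHGB1*, 120 kb apart, had 1.66, 1.82, 2.23 and 1.30, and here the intervals of HCC1954 (1.83 to 2.70) and OE33 (1.04 to 1.61) did not overlap.

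Each alpha and gamma gene was also set against the bin that holds the last constant exon of its cluster. *PCDHGB1*, 160 kb away, had 1.81 (SW480), 1.80 (SNU-C1), 1.88 (HCC1954) and 1.82 (OE33), a range narrower than the counting error of any line. *PCDHGA1*, 200 kb away, had 1.80, 1.33, 1.76 and 1.47. Of the named alpha genes, only *PCDHAC1* had lines whose intervals did not overlap. *PCDHAC1*, 80 kb away, had 1.90 in SW480 (1.66 to 2.16) and 1.92 in HCC1954 (1.63 to 2.24), against 1.28 in SNU-C1 (1.10 to 1.496) and 1.28 in OE33 (1.08 to 1.501), 2 pairs of lines whose intervals did not overlap. *PCDHA1*, 200 kb away, had 1.48, 1.28, 0.918 and 0.902, with intervals that overlapped. The bin of *PCDHAC2* lies next to that of the exon and had 1.26, 1.02, 1.25 and 1.26, while the shared bin of *PCDHGC3* and *PCDHGC5*, next to the last gamma exons, had 1.41 (1.30 to 1.53), 1.24, 1.08 and 0.959 (0.856 to 1.07), and the interval of SW480 overlapped neither that of HCC1954 (0.948 to 1.23) nor that of OE33, nor did those of SNU-C1 (1.13 to 1.37) and OE33.

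No contact of the locus was particular to 1 line by the rule used. A bin pair was called line-specific where its O/E reached 2 times that of every other line, with 0.5 added to each value. This held for 0 of 153 cluster bin pairs in each line. Over the genome the share called at these distances was 0.0293% (SW480), 0.0372% (SNU-C1), 0.0411% (HCC1954) and 0.0894% (OE33), so nothing is read from the counts of 0. The highest ratios were 1.28 in SW480 (140.48 with 140.72 Mb), 1.24 in SNU-C1 (140.36 with 140.72 Mb), 1.39 in HCC1954 (140.60 with 140.76 Mb) and 1.44 in OE33 (140.16 with 140.52 Mb, from 70 read pairs). In the whole 3-Mb window, up to 60 bins apart, 0.562%, 0.637%, 0.487% and 0.225% of 2670 bin pairs were called, against 0.445%, 0.615%, 0.596% and 0.743% over the genome at the same distances.

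Among the pooled contact measures, the lines differed most in contacts of the clusters with the flanks. The highest over the lowest line was 1.01 for contacts between clusters, 1.17 within clusters and 1.30 with the flanks. The share of windows whose lines differ by 1.25 times or more was 56.5% between blocks, 44.2% within blocks and 50.7% with the flanks, so the flank difference is of a common size and the value between clusters a small one: 8 windows of 49876, the locus included, had lines as close, against a median of 1.28 times. That closeness depended on the processing. The ratio was 1.03 to 1.06 with another expected value, filter or choice of bins and 1.46 without the authors' correction. By side, gamma with the 400 kb before the clusters had 1.002 (SW480), 0.813 (SNU-C1), 0.658 (HCC1954) and 0.761 (OE33). With the 400 kb after them, gamma had 0.616, 0.621, 0.623 and 0.402, and beta had 0.625, 0.604, 0.590 and 0.380. OE33 was thus the lowest line on the side after the clusters and not on the side before. Without correction its contacts with both flanks together were 0.687, beside 0.687 in SW480, 0.572 in SNU-C1 and 0.464 in HCC1954, so the place of OE33 as the lowest line is lost. The 2 flanks contacted each other at 0.983 (SW480), 0.763 (SNU-C1), 0.627 (HCC1954) and 0.858 (OE33).

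**Figure D3:**
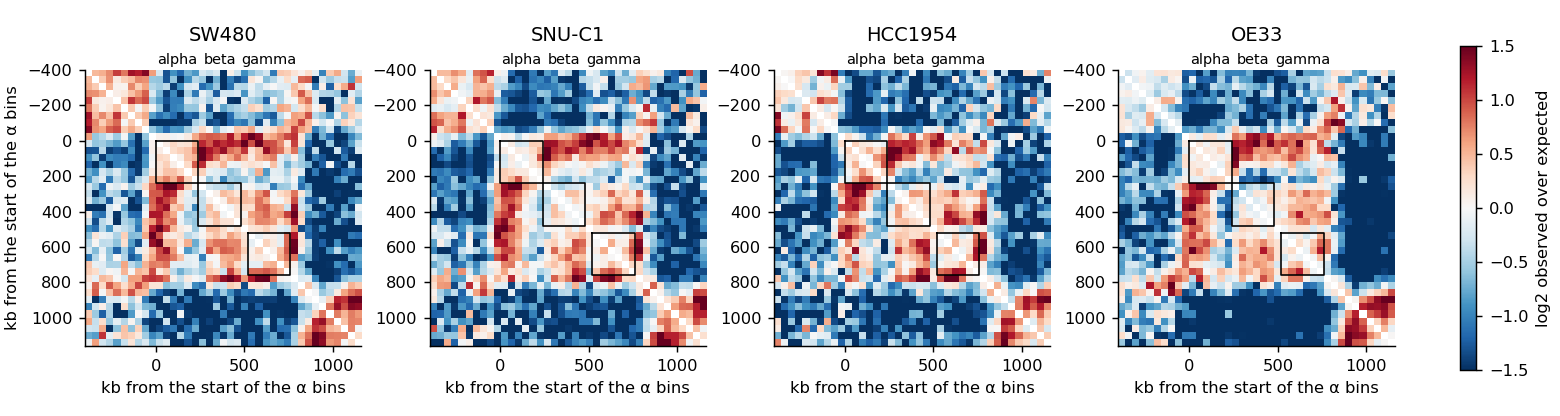
O/E on a log2 scale (red above and blue below the genome average, capped at -1.5 and 1.5, with O/E under 0.25 drawn as 0.25) for all bin pairs of the clusters and 400 kb on each side, by distance in kb from the start of the alpha bins, 1 panel for each cell line. Black squares outline the alpha, beta and gamma blocks. A red band from the first alpha bins runs across beta and gamma in the 4 panels, and contacts with both sides are mostly blue past the nearest bin, most of all after the clusters in OE33.

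The locus had a boundary on each side in every map. The insulation score is the log2 of the mean contact across a bin within 1 Mb, over the mean of the chromosome, and a boundary is a minimum with a strength of at least 0.1. The share of bins called was 4.16% (SW480), 4.35% (SNU-C1), 4.23% (HCC1954) and 3.87% (OE33). Before alpha the score was lowest in the bin at 140.08 Mb in SW480 and OE33 and at 140.12 Mb in SNU-C1 and HCC1954, 1 or 2 bins before that of *PCDHA1*, and the boundary of OE33 was called at 140.04 Mb. The minimum was -0.91 (SW480), -0.79 (SNU-C1), -0.99 (HCC1954) and -1.09 (OE33). After gamma it was lowest at 140.96 Mb in SW480 (-1.27), SNU-C1 (-1.24) and HCC1954 (-1.14), inside *DIAPH1*, a formin gene that shapes actin filaments. In OE33 it was lowest in the next bin (-1.90), which holds *HDAC3*, a histone deacetylase gene. The strength there was 1.33, 1.42, 1.18 and 2.03, and 6.06%, 5.95%, 14.0% and 1.002% of the boundaries of the same map were as strong. Before alpha the strength was 0.77, 0.80, 0.93 and 0.74, and 41.7%, 41.2%, 29.9% and 50.3% of the boundaries were as strong. With the 1-Mb window the edge after gamma was thus the stronger one in each map. With 240 kb this did not hold in HCC1954, where the strength was 2.88 before alpha and 2.84 after gamma, nor with 480 kb (1.89 and 1.68).

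Between the clusters there was no boundary at this window in SW480, SNU-C1, OE33 or the SW480 replicates. HCC1954 had 1 at 140.52 Mb, in beta, with a strength of 0.114, just over the threshold. With a window of 240 kb each map had 1 minimum inside the locus, at 140.44 to 140.52 Mb in beta, with strengths of 0.60 to 0.79 against medians of 1.20 to 1.27 over all boundaries at that window. The mean score over the 18 bins was -0.34 (SW480), -0.33 (SNU-C1), -0.45 (HCC1954) and -0.50 (OE33). Without correction it was -0.33, -0.39, -0.70 and -0.11, so OE33 turned from the lowest line to the highest. By cluster it was lowest in gamma, at -0.52, -0.49, -0.52 and -0.80. With the 240-kb window the mean over the locus was above 0 in each line (0.24, 0.22, 0.28 and 0.15).

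**Figure D4:**
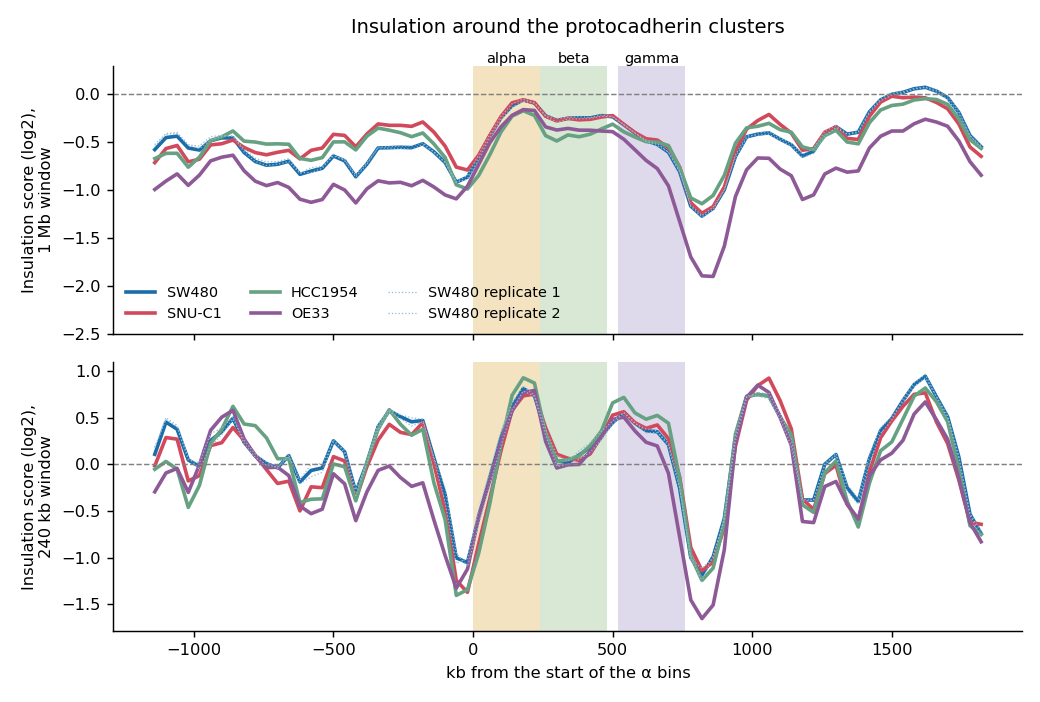
Insulation score (log2, vertical axis) by distance in kb from the start of the alpha bins, with windows of 1 Mb (upper panel) and 240 kb (lower panel), for the 4 cell lines (solid) and the SW480 replicates (dotted). Shaded bands are the alpha, beta and gamma bins. Minima lie just before alpha and after gamma in every map, and the one after gamma reaches -1.90 in OE33 with the 1-Mb window.

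The clusters formed a dip of the compartment score between 2 stretches of high score. The score is the leading eigenvector of contacts among 200-kb blocks of 5q, with the sign of gene number (clustered protocadherins left out of the count) and an SD of 1. Its correlation with gene number over blocks was 0.41 to 0.51. The mean of the 4 blocks of the locus was -0.646 (SW480), -0.0863 (SNU-C1), -0.0412 (HCC1954) and -0.423 (OE33). The SW480 replicates gave -0.626 and -0.625, both above the map of their summed reads, so their SD (0.000707, n = 2) is smaller than their distance from it. The lowest block of the window was that at 140.4 Mb, which holds *PCDHB2*, at -1.10, -0.45, -0.54 and -0.83. The last block, with *PCDHGC3* and *PCDHGC5*, was the only one of the 4 above 0, at 0.28, 0.57, 0.70 and 0.30. The other 3 were below 0 in each line. The last block reaches past gamma, which ends at base 140892544, up to the block at 141 Mb. Its score, and with it the mean of the 4 blocks, thus includes bins outside the clusters. Over the genome 50.5%, 45.6%, 51.1% and 47.5% of blocks were above 0 in the 4 lines, and 20.4% had a sign in 1 line that differed from the other 3, while none of the 4 blocks did. The block before them, at 140.0 Mb, holds the first alpha bin with *PCDHA1*. It had 0.06 (SW480), 0.52 (SNU-C1), 0.19 (HCC1954) and -0.07 (OE33), and the SW480 replicates fell on both sides of 0 (-0.03 and 0.16).

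On both sides the score was high. The block at 139.6 Mb had 1.35 (SW480), 1.46 (SNU-C1), 1.19 (HCC1954) and 1.20 (OE33). The block at 141.2 Mb, with the non-clustered *PCDH1* and *PCDH12*, had 1.32, 1.41, 1.44 and 1.33. The dip was deeper in SW480 and OE33 than in SNU-C1 and HCC1954, so the 2 colon lines did not fall together. Computed on the whole chromosome instead of 5q, the locus had means above 0 in SNU-C1 (0.08) and HCC1954 (0.14) and below 0 in SW480 (-0.37) and OE33 (-0.31), so the sign of the mean is not settled in SNU-C1 and HCC1954.

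Relatives of the clustered genes and a list of CTCF and cohesin genes were counted for comparison. That list also held *SMCHD1*, which is not a cohesin gene. Of 12 non-clustered protocadherins 10 had a score, and it was above 0 for 3, 3, 3 and 2 of them in SW480, SNU-C1, HCC1954 and OE33. Their medians were -1.13, -0.97, -1.12 and -1.11. Of the 53 clustered genes 9, 9, 9 and 5 lay in blocks above 0 (at 140.0 and 140.8 Mb, and in OE33 at 140.8 Mb alone), with medians of -0.78, -0.17, -0.22 and -0.68, against medians of all blocks of 0.03, -0.21, 0.06 and -0.13. Of the 9 genes of the CTCF and cohesin list, *SMCHD1* included, 8 had a score, above 0 for 8, 7, 8 and 7. Of the 18082 protein-coding genes with a score 79.2%, 74.7%, 77.3% and 76% were above 0 in the same order. *RAD21*, a cohesin subunit gene, was the one below 0, in SNU-C1 (-0.45) and OE33 (-0.17). *NIPBL*, the cohesin loader gene on 5p, had 1.33, 1.41, 1.11 and 1.06. Most clustered genes share a few blocks and the other lists are short, so these counts are of few independent places and nothing is read from them.

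Coverage is the number of recovered read pairs of a bin over the autosomal median of the map, and it follows DNA copy number as well as mappability. At the 18 bins the median over the other 3 lines was 0.991 (SW480), 1.04 (SNU-C1), 0.844 (HCC1954) and 1.14 (OE33). Bins at least 1.25 times above or below the others numbered 1, 0, 2 and 2 of 18, while 37.9%, 42.8%, 54% and 48.8% of all usable bins were called in the same order. Around the genes, in windows of about 1 Mb, 0 of the 53 clustered genes were called in any line. Of the 10 non-clustered protocadherins with a value 3, 4, 0 and 3 were called higher and 0, 1, 4 and 2 lower. Of the 9 genes of the CTCF and cohesin list, *SMCHD1* included, 3, 2, 5 and 2 were called higher and 2, 5, 1 and 5 lower. By the same measure 28.6%, 10.1%, 20.6% and 37.3% of all 19582 protein-coding genes were called higher and 10.2%, 36.3%, 29.9% and 16.2% lower, and with lists this short nothing is read from the counts. *PCDH1* and *PCDH12*, beside the clusters, were called higher in OE33 at 1.27 and 1.33.

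The other called protocadherins lay on other chromosomes. *PCDH8*, *PCDH17* and *PCDH20*, on chromosome 13, were higher in SNU-C1 at 2.15, 3.19 and 3.15 times the other lines. *PCDH17* was lower in HCC1954 (0.689), and *PCDH20* was higher in SW480 (1.26) and lower in HCC1954 (0.752) and OE33 (0.758). *PCDH15* was higher in SW480 (1.47) and OE33 (1.61) and lower in SNU-C1 (0.638) and HCC1954 (0.680). *PCDH19* was higher in SW480 (1.54) and SNU-C1 (1.76) and lower in HCC1954 (0.658) and OE33 (0.505). In the CTCF and cohesin list *RAD21* had the highest value, 4.19 in HCC1954, and 1.42 in SNU-C1, with 0.506 in SW480 and 0.703 in OE33. *NIPBL* was higher in SNU-C1 (1.35) and HCC1954 (1.75) and lower in SW480 (0.677) and OE33 (0.739). *WAPL*, which releases cohesin from DNA, was higher in OE33 (2.44) and SW480 (1.28) and lower in SNU-C1 (0.650) and HCC1954 (0.772). The cohesin subunit genes *SMC1A* and *SMC3* were higher in HCC1954 (*SMC1A*, 1.80), SW480 (*SMC1A*, 1.49) and OE33 (*SMC3*, 1.81), and lower in SNU-C1 (0.304 and 0.749) and, for *SMC1A*, in OE33 (0.671). The bin of the *SMC1A* start was not usable and had no score, so its values come from the usable bins around it. *STAG2* was lower in OE33 (0.625). *SMCHD1* was higher in SW480 (1.60) and HCC1954 (1.90) and lower in SNU-C1 (0.638) and OE33 (0.473). *CTCF* was higher in HCC1954 (1.26) and lower in SNU-C1 (0.774).

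OE33 had more read pairs just after the clusters than in them. Its median ratio to the other lines rose from 1.14 in the cluster bins to 1.57 in the 400 kb after them, where 8 of 10 bins were called. In SW480 the ratio was 1.26 in the 400 kb before the clusters, with 6 of 10 bins called. In the flank after the clusters OE33 was also the lowest line in contacts with beta and gamma, and in the flank before them SW480 was the highest in contacts with gamma. The part of coverage in those values was not tested.

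**Figure D5:**
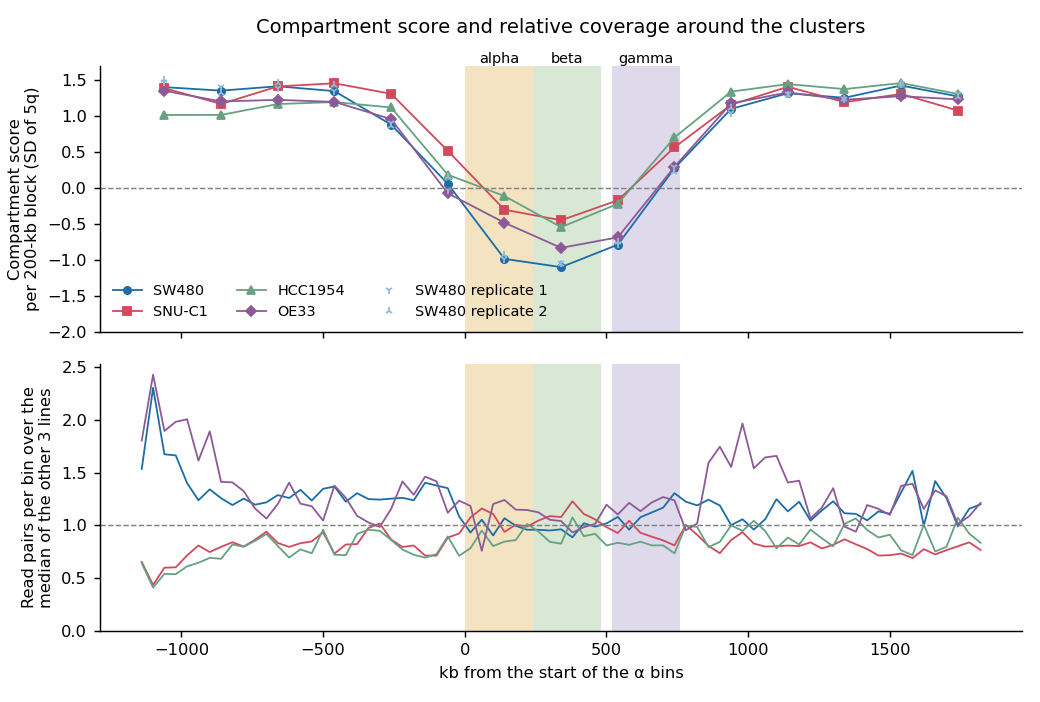
Upper panel: compartment score of 200-kb blocks, in SD of 5q, for the 4 cell lines (lines) and the SW480 replicates (tick marks). Lower panel: read pairs of each 40-kb bin over the median of the other 3 lines. The horizontal axis is the distance in kb from the start of the alpha bins, and shaded bands are the clusters. The score is below 0 in the 3 blocks from 140.2 Mb on in the 4 lines, and the coverage ratio of OE33 reaches 1.96 in the 400 kb after gamma.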

How the data were processed

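In situ Hi-C (MboI) of 4 cancer cell lines was analysed from 6 deposited maps. Per the study's methods, BWA-MEM placed the reads on hg19, Picard took out duplicates and the matrices were iteratively corrected. For versions and read filters: not given in the sources used here. In unit, each deposited value is a signal, namely the contact frequency of a pair of 40-kb bins once corrected. Within a chromosome, the coefficient of variation of the bins' corrected sums had a median of 0.000648 in SW480 and 0.0556 to 0.0652 in the other lines, and over the genome it was 0.139 and 0.0638 to 0.0764. Signal between chromosomes made 0.216% in SW480 and 14.2% to 33.5% in the others. SW480 thus looks corrected chromosome by chromosome and the others over the genome, which no source used here states and which bears on comparisons of SW480 with the other lines. Scaling each chromosome was one alternative.

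Read pairs were recovered by fitting a factor per bin (45 iterations). On chromosome 5, 100% of values up to 20.5 read pairs were within 0.02 of a whole number, and 99.8% to 99.98% over the genome. Samples were grouped by cell line from the labels. Bins needed 0.25 of the median coverage in each line. Genes came from GENCODE v44 lifted to hg19. The scripts were tested on simulated data. Python 3.11.15, numpy 2.4.6, scipy 1.17.1 and numba 0.67.0 were used. The named genes are the 9 members, the nearest flanking genes at a boundary, and from the further list those called or on chromosome 5. Members, lists and thresholds were chosen with earlier results of these data known. Alternatives covered the expected value, correction, bins, filter, windows, blocks and replicates.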

Additional observations from a re-analysis of the deposited data

How the results depend on the processing

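The line with the highest value was compared with the lowest under each alternative, and a value was taken as moved when it shifted by more than 1 SD of the SW480 replicates. Contacts between clusters differed by 1.06 times with an expected value from chromosome 5 alone, 1.46 without correction, 1.05 with bins wholly inside the clusters, 1.03 with the filter at 0.5 and 1.05 with each chromosome scaled, a setting chosen after seeing the data, against 1.01. Contacts within clusters differed by 1.27 times without correction, against 1.17, and the order turned: OE33 went from lowest (1.09) to highest (1.12) and HCC1954 from highest (1.27) to lowest (0.881). Contacts with the flanks differed by 1.248 times with chromosome 5 alone, 1.48 without correction, 1.31 with bins wholly inside, 1.26 with the filter at 0.5 and 1.32 with scaled chromosomes, against 1.30. The lines' insulation differed by 0.60 without correction, 0.12 with a window of 480 kb and 0.13 with one of 240 kb, against 0.17. With the 240-kb window its sign turned in SW480 (0.24), SNU-C1 (0.22), HCC1954 (0.28) and OE33 (0.15). Compartment scores differed by 0.70 with blocks of 400 kb, 0.54 with blocks of 80 kb and 0.50 on the whole chromosome, where the sign turned in SNU-C1 (0.0763) and HCC1954 (0.138), against 0.605. With 1 SW480 replicate left out the difference was 0.584 to 0.585. Coverage differed by 1.31 times with the median of chromosome 5, against 1.35. The cause was not tested. Of 112 values of single lines under these settings 31 stayed, 75 moved and 6 turned. No paired analysis was possible because, of the maps used here, only those of SW480 carry replicate numbers. Depth limits single bin pairs, whose medians were 40 to 71 read pairs.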

Other observations

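Between chromosomes, which 3 of the lines can show, the cluster bins made 14.2% of their read pairs in SNU-C1 (9785 read pairs), 16.5% in HCC1954 (8029) and 34.5% in OE33 (26264). The rest of the 3-Mb window had 15.3%, 19.4% and 38.9%. The share of the cluster bins was thus the lower of the 2 in each of the 3 lines. The 1-Mb block with most of these read pairs lay on chromosome 11 at 35 to 36 Mb in SNU-C1 (121 read pairs) and on chromosome 17 in HCC1954 (37 to 38 Mb, 69) and OE33 (39 to 40 Mb, 105), against medians of 3, 3 and 9 over all blocks contacted. Copy number of those blocks was not taken into account.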
